A study of Mus musculus with 15 samples.

Results

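The genes described are 9 transcripts associated with the inhibitory interneurons of the cerebellar cortex: Kit, Sorcs3, Prkcd and Nxph1 for the molecular layer, Grm2, Lgi2 and Slc6a5 for Golgi cells, and Pax2 and Slc32a1, which these neurons share. They were taken by symbol from the 24421 genes of the count tables, and all 9 had enough counts to be tested. RNA was sequenced from whole cerebellum of FVB mice of 3 genotypes, with 5 libraries each. Wild type was FVB without a transgene. The ATXN1[82Q] transgene encodes ATXN1 with an expanded glutamine tract, the change that causes spinocerebellar ataxia type 1. The ATXN1[82Q]V591A;S602D transgene has this tract together with the substitutions V591A and S602D, which are known to weaken the binding of ATXN1 to the transcriptional repressor CIC, and is called the substituted transgene here. Both transgenes are driven by the Pcp2 promoter, which in the cerebellum is active in Purkinje cells, not in the interneurons. Age and sex are not in the labels, nor is whether the libraries of a genotype were from different mice, so p-values measure the spread between libraries, which may be technical.

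Basket and stellate cells of the molecular layer release GABA onto Purkinje cells and onto each other, and Golgi cells of the granular layer release GABA and glycine onto granule cells. Both descend from Pax2-positive precursors. Purkinje cells display Kit ligand on their surface, and the molecular layer interneurons that contact them carry the Kit receptor.

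The total count on genes per library ran from 36467948 to 42818401, and the 9 genes had between 375 counts (Slc6a5) and 17037 counts (Kit) in a library. Levels are given as counts per 1000000 counts on genes (CPM), scaled by the TMM normalisation of edgeR. In bulk tissue, fewer cells of a type and less RNA per cell cannot be told apart. The 10 Purkinje cell markers used to check the tissue were detected in every library, with a summed level of 8240 to 9420 CPM in wild type, 2930 to 3580 CPM in ATXN1[82Q] and 5810 to 8000 CPM with the substituted transgene. Libraries differed in tissue that neighbours the cerebellar cortex. The summed level of 23 brainstem and other hindbrain markers was 20.1 CPM in ATXN1[82Q] replicate 5, 6.41 CPM in ATXN1[82Q] replicate 2 and 4.38 CPM in replicate 4 of the substituted transgene, and no more than 1.61 CPM in the other 12 libraries. Of these 23 markers, 2 to 18 were at 0 in a library. Only 2 of the 23 had enough counts to be tested. The noradrenaline transporter gene Slc6a2 was called higher in ATXN1[82Q] against wild type (adjusted p = 0.0238 by edgeR), and the other tested marker was not called (adjusted p = 0.583). Slc6a2 was at 6.86 CPM in ATXN1[82Q] replicate 5, 1.35 CPM in replicate 2 and at most 0.266 CPM in the other 3. The summed level of 9 choroid plexus markers was under 100 CPM in 3 wild-type libraries, 2 ATXN1[82Q] libraries and 2 libraries of the substituted transgene, and reached 5190 CPM in the others.

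In ATXN1[82Q] against wild type 5 of the 9 interneuron genes rose, namely Nxph1, Pax2, Grm2, Kit and Sorcs3, by 14.1% to 36.4%, and none fell, also at an unadjusted p under 0.05 and by DESeq2. The edgeR quasi-likelihood test over 15843 genes called 16.6% of all tested genes higher and 14.9% lower at an adjusted p under 0.05. The median log2 difference of the 9 genes was 0.22, beside 0.00685 over all tested genes. With the substituted transgene against wild type 1 of the 9, Prkcd, fell and none rose, where 1.2% of all tested genes were called lower and 0.208% higher. At an unadjusted p under 0.05, 3 were higher and 1 lower, and DESeq2 called Prkcd lower and 0 higher. The shares of all tested genes given here are for adjusted edgeR calls and cannot be set beside these counts. No share was computed at an unadjusted p under 0.05. The median log2 difference of the 9 genes was 0.0685 with the substituted transgene, beside 0.00588 over all tested genes. In ATXN1[82Q] against the substituted transgene 5 of the 9 were higher, namely Nxph1, Kit, Prkcd, Sorcs3 and Grm2, and none was lower by either tool, where 13.5% of all tested genes were called higher and 14.6% lower. The 3 comparisons share their libraries and are not independent of each other.

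**Figure D1:**
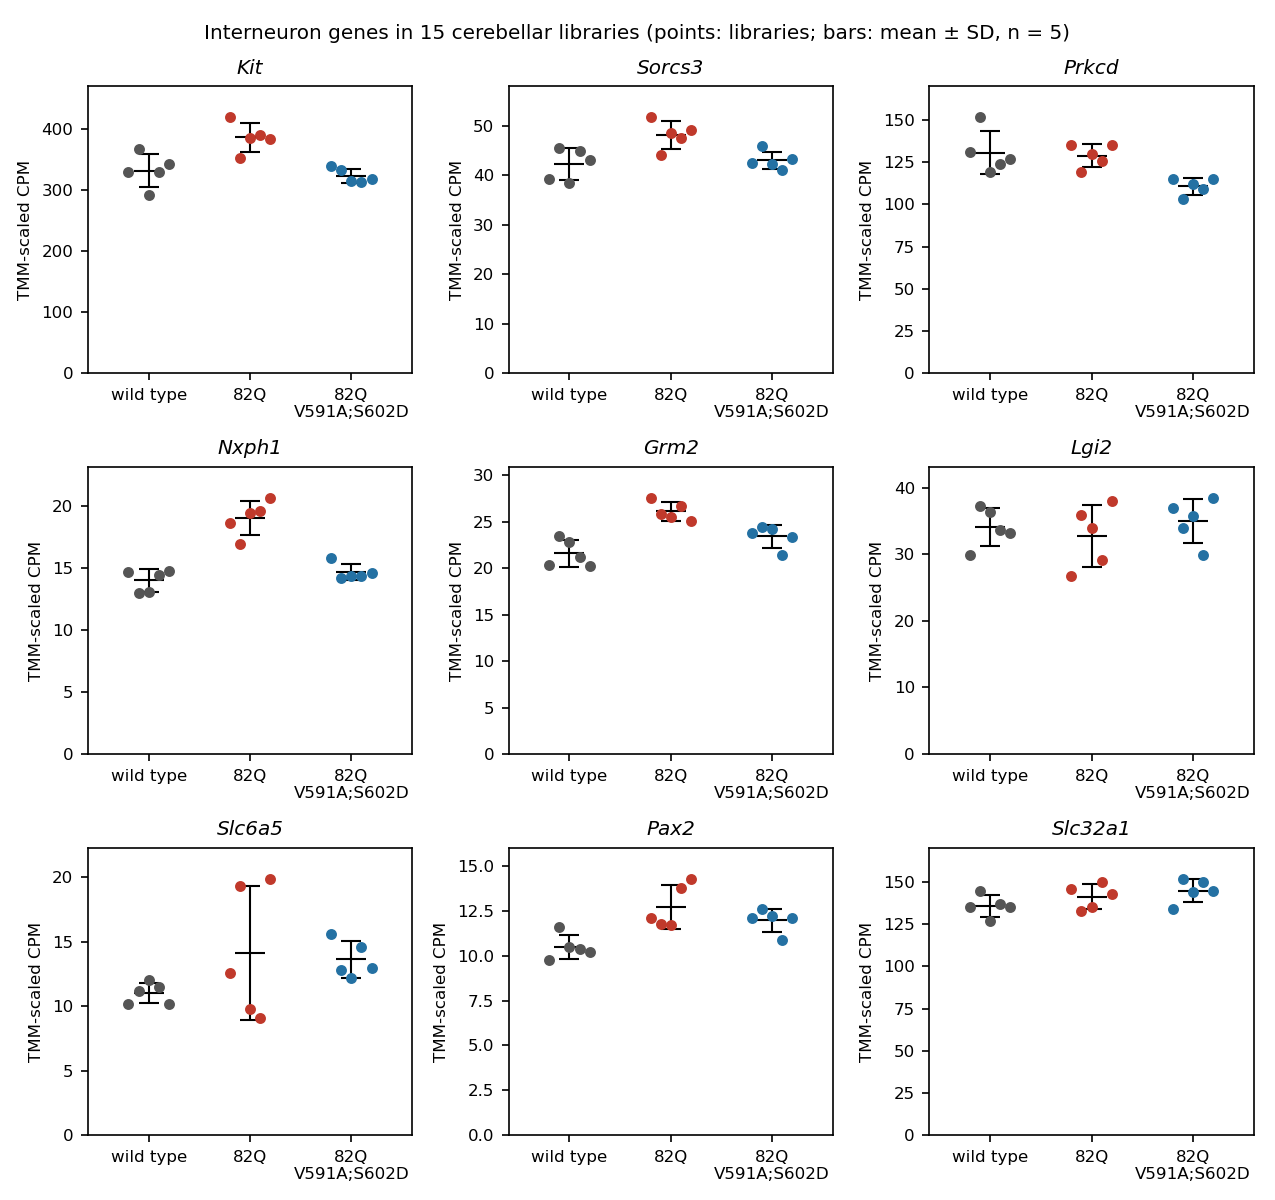
Level of each of the 9 interneuron genes in every library (CPM, TMM-scaled, y axis from 0), with a point per library and bars at the mean and SD of each genotype (n = 5). Nxph1 lay between 17 and 20.7 CPM in ATXN1[82Q], above every other library, and Slc6a5 spread from 9.07 to 19.9 CPM within ATXN1[82Q].

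The promoter sequences of 4 of the 5 genes that rose in ATXN1[82Q] are shown because these genes moved in the same direction and the transgenes differ in CIC binding, so that the letters before their starts can be read beside their values. They are RefSeq sequences of the GRCm38.p6 build, up to 250 bases before a RefSeq start and cut where an annotated exon of the gene begins. They read 5′ to 3′ on the gene's strand. Capitals mark a GC box (GGGCGG) or an E-box (CAGCTG), the motifs found among those searched. The window of Nxph1, which also rose, lies within an annotated exon of the gene and is not shown. Kit has 2 RefSeq windows, which overlap, and Pax2 has 3. The Pax2 window shown was chosen after its motifs were seen: it is the one of the 3 with both motifs, another holds only a GC box and the remaining one neither. The windows shown are chr5:75574737-75574915 (plus strand) for Kit, chr19:48205775-48206024 (plus strand) for Sorcs3, chr9:106656110-106656359 (minus strand) for Grm2 and chr19:44755502-44755751 (plus strand) for Pax2.
Kit: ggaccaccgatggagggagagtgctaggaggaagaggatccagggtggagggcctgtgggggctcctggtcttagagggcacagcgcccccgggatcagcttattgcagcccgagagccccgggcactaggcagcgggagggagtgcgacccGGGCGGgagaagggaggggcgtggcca
Sorcs3: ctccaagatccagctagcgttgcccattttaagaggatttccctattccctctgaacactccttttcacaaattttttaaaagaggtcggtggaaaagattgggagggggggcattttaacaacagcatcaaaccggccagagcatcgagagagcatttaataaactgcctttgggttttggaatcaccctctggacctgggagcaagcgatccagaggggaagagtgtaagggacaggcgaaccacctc
Grm2: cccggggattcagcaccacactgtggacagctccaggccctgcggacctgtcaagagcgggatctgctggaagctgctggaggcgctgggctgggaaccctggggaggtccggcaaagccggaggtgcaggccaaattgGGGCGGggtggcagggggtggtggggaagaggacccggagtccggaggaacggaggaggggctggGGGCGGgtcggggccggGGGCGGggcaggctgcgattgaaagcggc
Pax2: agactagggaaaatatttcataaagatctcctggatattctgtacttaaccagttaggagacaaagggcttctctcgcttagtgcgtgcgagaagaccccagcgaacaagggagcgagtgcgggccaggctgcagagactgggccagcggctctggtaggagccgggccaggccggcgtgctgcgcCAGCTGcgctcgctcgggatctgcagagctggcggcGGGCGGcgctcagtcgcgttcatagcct

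The CIC octamers TGAATGAA, TGAATGGA, TCAATGAA and TCAATGGA were searched on both strands in the 250 bases before each RefSeq start. None was found in the 14 windows of the 9 genes, and 3.19% of 32851 mouse promoters of that length hold at least 1. A GC box was found in 8 of the 14 windows, which belong to 6 of the genes, and in 32.7% of all promoters. Grm2 has 3 GC boxes, at 111, 46 and 29 bases before the start, and Kit has 1, at 98 bases. The Nxph1 window, not shown, holds 2 on the opposite strand, at 72 and 56 bases. The Sorcs3 window holds none. An E-box was found in 2 of the 14 windows, 1 of Pax2 and 1 of Prkcd, and in 13% of all promoters. The motifs do not overlap in the printed windows, and an absent match says only that these letters are not in this window.

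Kit, the receptor tyrosine kinase of the molecular layer interneurons (GRCm38 chr5:75574916-75656722, plus strand), had the highest count of the 9. It was at 329, 367, 291, 330 and 342 CPM in wild-type replicates 1 to 5. In ATXN1[82Q] it was at 420, 353, 385, 390 and 384 CPM, and with the substituted transgene at 339, 332, 314, 313 and 318 CPM. The ATXN1[82Q] libraries lay above every library of the substituted transgene, and 1 of them, replicate 2, lay below the highest wild-type library. Kit rose by 16.5% in ATXN1[82Q] against wild type (log2 difference 0.22, SE 0.0541, adjusted p = 0.00514) and was 19.6% higher than with the substituted transgene (0.26, SE 0.0541, adjusted p = 0.0022). The substituted transgene differed from wild type by a log2 value of -0.04 (interval -0.153 to 0.0759, adjusted p = 0.841).

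Sorcs3, a sorting receptor of the Vps10p-domain family (chr19:48206025-48805505, plus strand), was at 39.3, 45.5, 38.5, 44.8 and 43 CPM in wild type. It was at 51.8, 44, 48.5, 47.5 and 49.1 CPM in ATXN1[82Q] and at 42.5, 45.8, 42.3, 41.1 and 43.3 CPM with the substituted transgene. All but replicate 2 of the ATXN1[82Q] libraries lay above both other groups. Sorcs3 rose by 14.1% in ATXN1[82Q] against wild type (log2 0.19, SE 0.0535, adjusted p = 0.012). Against the substituted transgene it was 12% higher (log2 0.16, adjusted p = 0.0311), a call that was lost when any 1 of 7 libraries was left out: replicates 1, 3, 4 and 5 of the substituted transgene and replicates 1, 3 and 5 of ATXN1[82Q] (adjusted p 0.054 to 0.084).

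Prkcd encodes protein kinase C delta (chr14:30595354-30626210, minus strand). It was at 131, 152, 119, 124 and 127 CPM in wild type, at 135, 119, 130, 126 and 135 CPM in ATXN1[82Q], and at 115, 103, 112, 109 and 115 CPM with the substituted transgene. Every library of the substituted transgene lay below every library of the other genotypes. Such a gap in the lower direction against wild type was seen for 2.03% of all tested genes. Prkcd fell by 0.24 on the log2 scale with the substituted transgene (SE 0.0551, adjusted p = 0.0385), and was 16.3% higher in ATXN1[82Q] than there (log2 0.22, adjusted p = 0.00767). In ATXN1[82Q] against wild type the log2 difference was -0.02 (interval -0.136 to 0.0954, adjusted p = 0.807). The fall against wild type lost its call without any 1 of the 5 libraries of the substituted transgene, without ATXN1[82Q] replicate 3 or 4, and without wild-type replicate 1, 2 or 5 (adjusted p 0.0512 to 0.13). Its adjusted p was also 0.0749 with only the 2 genotypes in the fit and 0.091 with the replicate number as a block.

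Nxph1 encodes a neurexophilin, a secreted ligand of alpha-neurexins (chr6:8948431-9249032, plus strand), and showed the largest rise of the 9 in ATXN1[82Q]. It was at 14.7, 13, 13.1, 14.5 and 14.8 CPM in wild type, at 18.7, 17, 19.5, 19.6 and 20.7 CPM in ATXN1[82Q], and at 15.8, 14.2, 14.4, 14.4 and 14.6 CPM with the substituted transgene. Every ATXN1[82Q] library lay above all 10 others. Nxph1 rose by 36.4% against wild type (log2 0.45, SE 0.0588, adjusted p = 2.03e-05) and was 30.1% higher than with the substituted transgene (log2 0.38, adjusted p = 0.000202). Between the substituted transgene and wild type the log2 difference was 0.07 (interval -0.0567 to 0.194, adjusted p = 0.704). Both Nxph1 calls held under all 26 alternatives run. The summed level of 6 oligodendrocyte precursor markers ran from 145 to 180 CPM in ATXN1[82Q], 108 to 138 CPM in wild type and 119 to 143 CPM with the substituted transgene. Of these 6, 4 rose in ATXN1[82Q] against wild type (C1ql1, Gpr17, Olig1 and Cspg4), where 16.6% of all tested genes were called higher. None of the 6 was at 0 in any library, and their part in the Nxph1 result was not tested.

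Among the Golgi cell genes Grm2 rose in ATXN1[82Q] against wild type, while Lgi2 and Slc6a5 were not called. The Grm2 rise was not assigned to a cell type. Grm2 encodes metabotropic glutamate receptor 2, which couples to inhibitory G proteins (chr9:106643095-106656082, minus strand). It was at 20.4, 23.5, 22.8, 21.2 and 20.2 CPM in wild type, at 27.6, 25.8, 25.5, 26.7 and 25.1 CPM in ATXN1[82Q], and at 23.8, 24.4, 24.2, 21.4 and 23.4 CPM with the substituted transgene. The ATXN1[82Q] libraries lay above all others. Grm2 rose by 20.8% against wild type (log2 0.27, SE 0.0519, adjusted p = 0.000731). It was 11.5% higher than with the substituted transgene (log2 0.16, adjusted p = 0.0316), and leaving out ATXN1[82Q] replicate 1 or 4, or library 4 or 5 of the substituted transgene, ended this call (adjusted p 0.0604 to 0.0792). An antisense gene covers 9.6% of the Grm2 exon bases, and whether the counting used strand is not given in the sources used here.

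Lgi2, a secreted leucine-rich repeat protein (chr5:52533517-52566462, minus strand), did not pass the test in any comparison. It was at 29.9, 37.3, 36.3, 33.7 and 33.2 CPM in wild type, at 26.8, 35.9, 34, 29.2 and 38 CPM in ATXN1[82Q], and at 37, 34, 35.8, 29.9 and 38.5 CPM with the substituted transgene. The 3 genotypes overlapped. The log2 difference of ATXN1[82Q] from wild type was -0.05, with an interval from -0.246 to 0.136 (adjusted p = 0.68).

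Slc6a5, the glycine transporter GlyT2 of glycinergic neurons, is used by Golgi cells and also by neurons of the brainstem and deep cerebellar nuclei (chr7:49910146-49963856, plus strand). It was at 10.2, 11.2, 12, 11.5 and 10.2 CPM in wild type and at 15.6, 12.8, 12.2, 14.6 and 13 CPM with the substituted transgene. In ATXN1[82Q] it was at 12.6, 19.3, 9.78, 9.07 and 19.9 CPM, so that this genotype held both the lowest and the highest of the 15 libraries. Its coefficient of variation was 36.6% in ATXN1[82Q] and 7.03% in wild type. The high ATXN1[82Q] libraries, replicates 2 and 5, were those with 6.41 and 20.1 CPM of summed brainstem markers. The log2 difference of ATXN1[82Q] from wild type was 0.36 (interval -0.021 to 0.731, adjusted p = 0.141) with all libraries and -0.08 without replicates 2 and 5. It passed the test only without ATXN1[82Q] replicate 4, at 0.48 (adjusted p = 0.0367). Between the transgenes the log2 difference was 0.05 with all libraries (adjusted p = 0.86) and -0.39 without ATXN1[82Q] replicates 2 and 5 (adjusted p = 0.0201). These replicates were the highest in Slc6a5 of all 15 libraries, so that leaving them out lowers the ATXN1[82Q] level by itself. Replicate 4 of the substituted transgene, at 4.38 CPM of summed brainstem markers, was kept in that fit. No conclusion is drawn from its p-value. The libraries of the substituted transgene all lay above wild type, which 1.13% of all tested genes did, at a log2 difference of 0.31 that did not pass the test (adjusted p = 0.545).

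**Figure D2:**
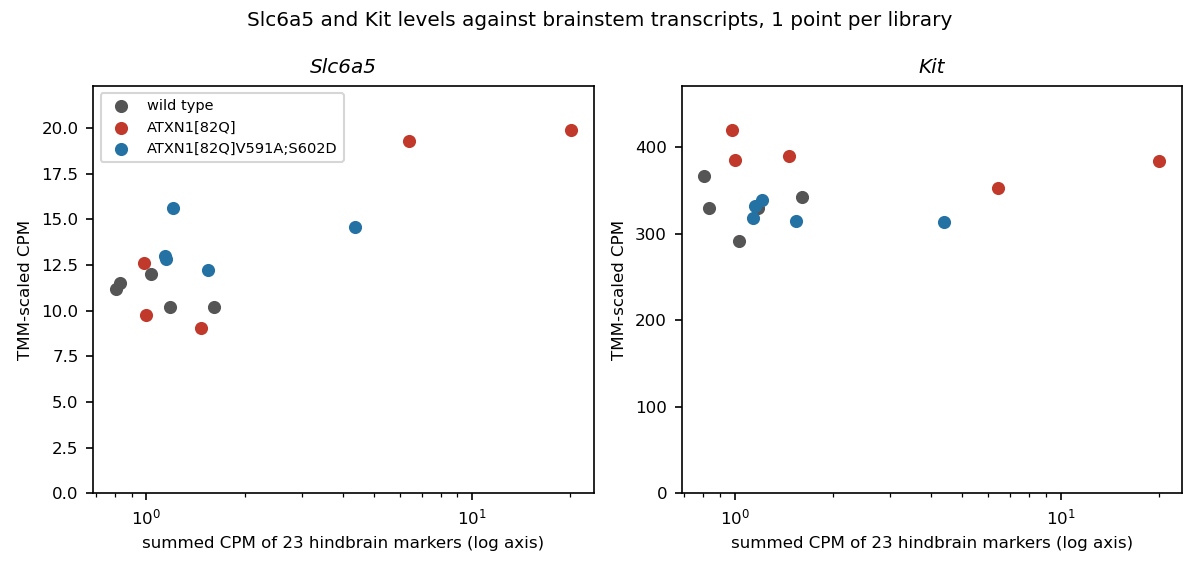
Level of Slc6a5 (left) and Kit (right) in each library (CPM, y axis from 0) against the summed CPM of 23 brainstem and other hindbrain markers (log x axis), coloured by genotype. The library at 20.1 CPM of the markers, ATXN1[82Q] replicate 5, has 19.9 CPM of Slc6a5 and 384 CPM of Kit.

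Pax2, a transcription factor of the interneuron precursors that Golgi cells keep (chr19:44756045-44837871, plus strand), rose in ATXN1[82Q]. It was at 9.77, 11.6, 10.5, 10.4 and 10.2 CPM in wild type, at 12.1, 11.8, 11.7, 13.8 and 14.3 CPM in ATXN1[82Q], and at 12.1, 12.6, 12.2, 10.9 and 12.1 CPM with the substituted transgene. The ATXN1[82Q] libraries lay above wild type by a narrow margin and overlapped with the substituted transgene. Pax2 rose by 21.6% against wild type (log2 0.28, SE 0.0701, adjusted p = 0.00542). The substituted transgene stood between the other genotypes, at a log2 difference of 0.19 from wild type (interval 0.0437 to 0.341, adjusted p = 0.264) and of 0.09 below ATXN1[82Q] (adjusted p = 0.356), and neither passed the test.

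Slc32a1, the transporter that loads GABA and glycine into synaptic vesicles, is used by all inhibitory neurons of the cerebellum, Purkinje cells included (chr2:158610767-158615748, plus strand). It was at 135, 145, 127, 137 and 135 CPM in wild type, at 146, 133, 135, 150 and 143 CPM in ATXN1[82Q], and at 134, 152, 144, 150 and 145 CPM with the substituted transgene. The genotypes overlapped, and the highest library was 1.2 times the lowest, the smallest range of the 9 genes. The log2 difference from wild type was 0.06 in ATXN1[82Q] (interval -0.0281 to 0.148, adjusted p = 0.293) and 0.10 with the substituted transgene (interval 0.00806 to 0.185, adjusted p = 0.375). An antisense gene covers 24.9% of its exon bases.

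**Figure D3:**
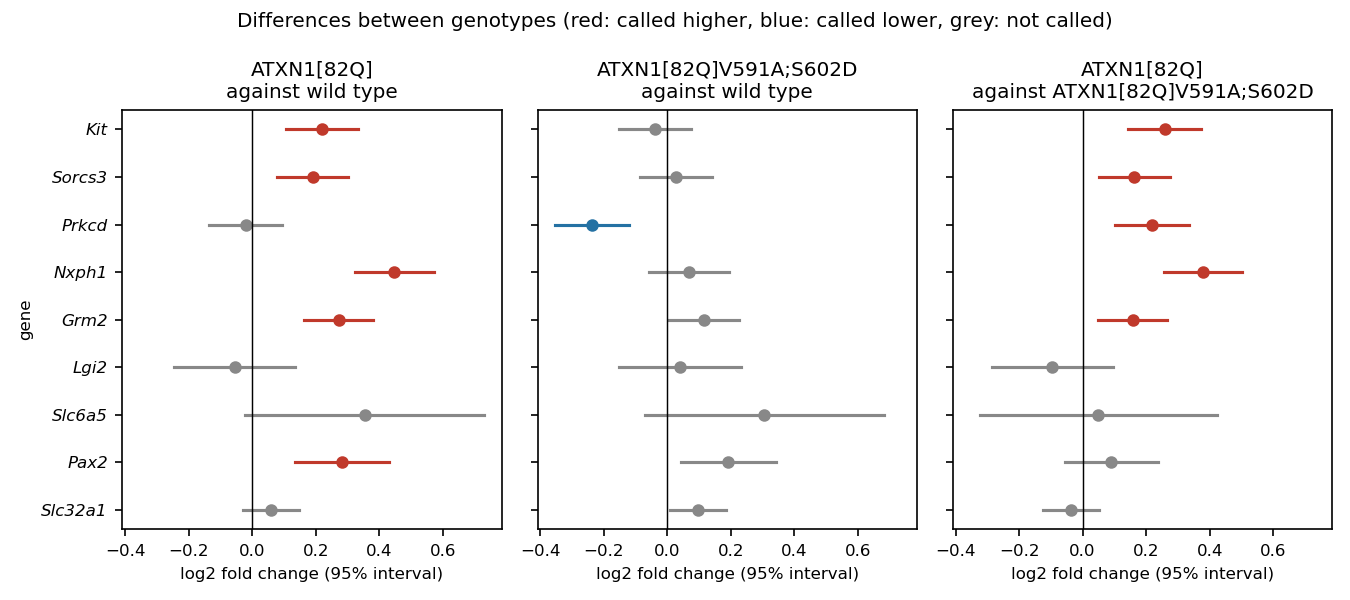
Log2 difference of each of the 9 genes in the 3 comparisons, with 95% intervals from the edgeR quasi-likelihood fit (n = 5 libraries per genotype). Red marks genes called higher, blue lower and grey not called, and Nxph1 at 0.45 stands highest among the called genes in ATXN1[82Q] against wild type.

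The ATXN1[82Q] libraries of Grm2, Nxph1 and Pax2 did not overlap with wild type, and 9.36% of all tested genes lay wholly above wild type in this way (9.79% wholly below). Against the substituted transgene this held for Kit, Prkcd, Grm2 and Nxph1, with 8.28% of all tested genes wholly above and 9.61% wholly below. All 5 rises against wild type stayed called without each single library and without ATXN1[82Q] replicates 2 and 5. They also stayed called with a brainstem covariate, either the mean of the 2 tested markers or the sum of all 23. A further fit took only the libraries with choroid plexus markers under 100 CPM, 3 of wild type and 2 of each transgene. There Kit and Nxph1 remained called in ATXN1[82Q] against wild type. Sorcs3 (log2 0.22, adjusted p = 0.0748), Grm2 (0.24, adjusted p = 0.0535) and Pax2 (0.13, adjusted p = 0.337) did not. Between the transgenes only Nxph1 remained called in these libraries. Kit (adjusted p = 0.0771 by edgeR), Prkcd (adjusted p = 0.187), Sorcs3 and Grm2 lost their calls between the transgenes.

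Per kilobase of exon, the order of the levels in wild type was Slc32a1 (48.5 CPM per kb), Kit (37.2), Prkcd (23.6), Sorcs3 (5.92), Lgi2 (5.22), Grm2 (4.42), Nxph1 (2.95), Pax2 (1.94) and Slc6a5 (1.53). Neighbours whose wild-type libraries overlapped were Sorcs3 with Lgi2 and Lgi2 with Grm2. In ATXN1[82Q] Grm2 (5.34 CPM per kb) stood before Lgi2 (5.02 CPM per kb), with overlapping libraries. The other genes kept their places in all 3 genotypes.

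After each genotype mean was taken off, the log2 CPM of the 9 genes varied together in part over the 15 libraries. Of 36 pairs of genes, 4 had a Pearson correlation over 0.5: Kit with Sorcs3 (0.808), Kit with Prkcd (0.707), Sorcs3 with Slc32a1 (0.606) and Kit with Slc32a1 (0.562). The median pair was at 0.176, and 11 pairs were below 0, down to -0.467 for Grm2 with Nxph1. These values are descriptions, and the genes of a pair share each library's dissection and depth.

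**Figure D4:**
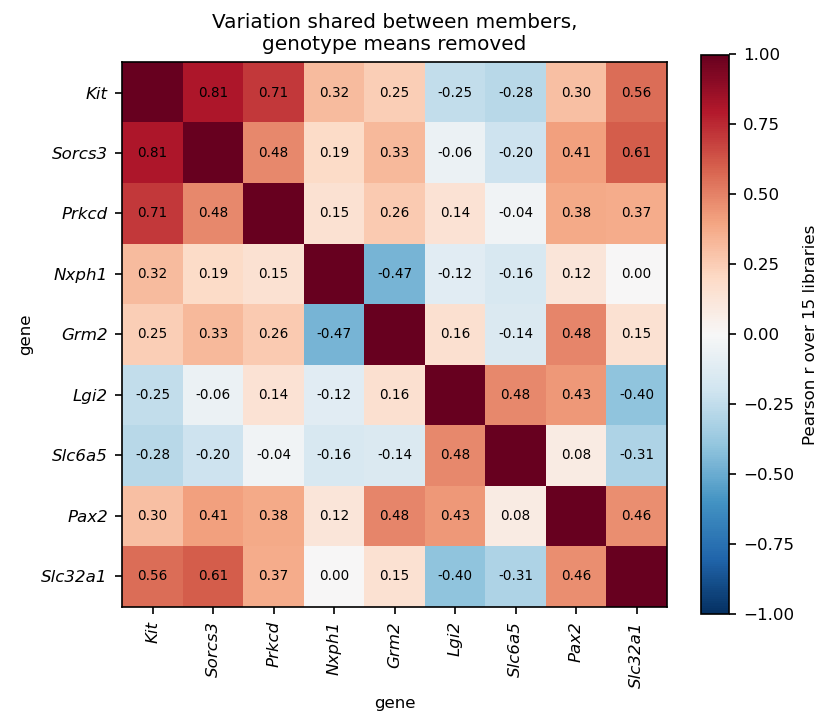
Pearson correlation of the log2 CPM of each pair of the 9 genes over 15 libraries, after the genotype means were taken off. The highest values join Kit with Sorcs3 (0.808) and Kit with Prkcd (0.707).

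The partners and relatives of these genes were 19, of which 18 were tested. In ATXN1[82Q] against wild type 5 rose and 6 fell, where 16.6% of all tested genes were called higher and 14.9% lower. Their median log2 difference was -0.065. With the substituted transgene 1 of the 18 fell, the Kit ligand, and none rose, with a median of -0.021. In that comparison 1.2% of all tested genes were called lower and 0.208% higher. DESeq2 called 3 of the 18 lower and 0 higher there. At an unadjusted p under 0.05 edgeR gave 3 lower and 2 higher, and no share of all tested genes was computed at that threshold. Between the transgenes 4 were higher and 5 lower in ATXN1[82Q], where 13.5% of all tested genes were called higher and 14.6% lower. The median was -0.0353, beside 0.00574 over all tested genes.

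Kitl encodes the ligand of Kit and lies on another chromosome (chr10:100015630-100100416, plus strand). It was at 141, 150, 165, 164 and 143 CPM in wild type, at 106, 92.2, 91.9, 85.5 and 85.2 CPM in ATXN1[82Q], and at 129, 124, 134, 117 and 119 CPM with the substituted transgene. No library of one genotype reached into the range of another. The ATXN1[82Q] libraries lay wholly below wild type for 9.79% of all tested genes, and those of the substituted transgene for 2.03%. Kitl fell by 0.73 on the log2 scale in ATXN1[82Q] (SE 0.0595, adjusted p = 9.84e-08) and by 0.29 with the substituted transgene (SE 0.059, adjusted p = 0.0157), and the transgenes differed by -0.44 (adjusted p = 7.12e-05). The receptor thus rose in ATXN1[82Q] while its ligand fell, and with the substituted transgene the ligand fell while Kit did not pass the test. All 10 Purkinje cell markers were called lower in ATXN1[82Q] against wild type, at a median log2 difference of -1.17. For the substituted transgene against wild type 6 of the 10 were called lower, at a median of -0.377. The part of these Purkinje cell marker falls in the Kitl result was not tested.

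Among the other surface partners Adam23, a membrane protein that binds LGI proteins, fell in ATXN1[82Q] from 252 ± 17.9 to 142 ± 9.12 CPM (SD, n = 5 each; log2 -0.83, adjusted p = 5.76e-08 by edgeR). It was at 214 ± 21 CPM with the substituted transgene (log2 -0.24 against wild type, adjusted p = 0.0904). The related LGI receptor Adam22 fell by 0.16 on the log2 scale in ATXN1[82Q] (adjusted p = 0.0125). Of the other LGI ligands Lgi1 fell by 0.32 (adjusted p = 1.83e-05) and Lgi3 rose by 0.22 (adjusted p = 0.00157). The neurexin gene Nrxn2 fell by 0.13 on the log2 scale (adjusted p = 0.035).

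The neurexophilin Nxph4 rose in ATXN1[82Q] by a log2 value of 0.48 (adjusted p = 0.0107), from 14.3 ± 2.25 to 20 ± 4.93 CPM (SD, n = 5 each). Its highest library was replicate 5, which was also highest in brainstem markers. Sorcs1, a relative of Sorcs3, rose by 0.28 (adjusted p = 0.00423), and the glycine transporter Slc6a9, which is mainly glial, by 0.33 (adjusted p = 7.26e-05), although 30.2% of its exon bases are shared with other genes. Of the genes for the GABA-synthesising enzymes, Gad2 rose by 0.16 (adjusted p = 0.00679), while Gad1 was at -0.05 (adjusted p = 0.388). With the substituted transgene Gad1 was at -0.14 (adjusted p = 0.157) and Gad2 at 0.11 (adjusted p = 0.27). Purkinje cells also use both enzymes.

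**Figure D5:**
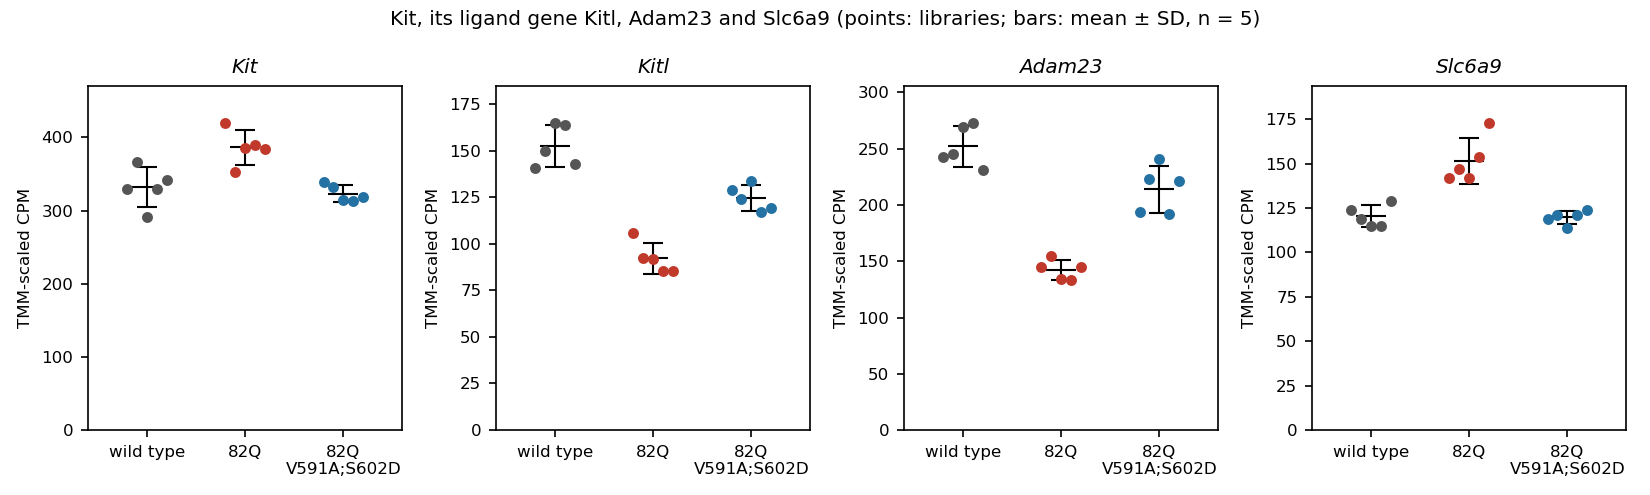
Levels of Kit, its ligand gene Kitl, Adam23 and Slc6a9 in every library (CPM, y axis from 0), with a point per library and bars at the mean and SD of each genotype (n = 5). The mean of Kitl was 152 CPM in wild type, 125 CPM with the substituted transgene and 92.1 CPM in ATXN1[82Q], with no overlap between genotypes.

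Of 12 further interneuron markers 5 rose and 1 fell in ATXN1[82Q] against wild type, with a median log2 difference of 0.23. Of all tested genes 16.6% were called higher and 14.9% lower there. None of the 12 was called with the substituted transgene against wild type by edgeR or DESeq2. At an unadjusted p under 0.05, 2 were higher, and no share of all tested genes was computed at that threshold. Edil3, a secreted adhesion protein, rose by 22.8% (log2 0.30, adjusted p = 0.00239), and the transcription factor Tfap2a by 21.6% (log2 0.28, adjusted p = 0.0039). The serotonin receptor Htr2a rose by a log2 value of 0.86 (adjusted p = 0.0121) at a low level of 0.584 CPM in wild type and 1.06 CPM in ATXN1[82Q].

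The neuropeptides moved in opposite directions. Npy, for neuropeptide Y, fell from 10.2 ± 1.58 to 5.57 ± 0.533 CPM in ATXN1[82Q] (SD, n = 5 each; log2 -0.88, adjusted p = 5.77e-06 by edgeR) and was at 9.45 ± 0.816 CPM with the substituted transgene. Sst, for somatostatin, was at 2.92, 4.92, 2.61, 7.81 and 8.48 CPM in ATXN1[82Q], above every wild-type library, and rose by a log2 value of 1.40 (adjusted p = 0.00531). Its 3 highest ATXN1[82Q] libraries, replicates 2, 4 and 5, also had the 3 highest sums of 4 tectum markers in that genotype, at 0.489, 0.387 and 0.699 CPM, with 1 or 2 of the 4 markers at 0. The highest tectum sum of the 15 libraries, 1.43 CPM, was in replicate 5 of the substituted transgene, which had the highest Sst level of that genotype, 6 CPM. Wild-type replicate 2 had 0.564 CPM of these markers and the highest wild-type Sst level, 2.36 CPM. ATXN1[82Q] replicates 2, 4 and 5 also had 3460, 3490 and 5190 CPM of summed choroid plexus markers. In ATXN1[82Q] replicates 1 and 3 that sum was 46.3 and 32.7 CPM. It was 62.8 CPM in replicate 5 of the substituted transgene and 29.6 CPM in wild-type replicate 2. The part of neighbouring tissue in the Sst result was not tested.

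Markers of other cells that can carry Kit were near 0 or low: 6 mast cell markers summed to at most 0.135 CPM in a library, with 3 to 6 of them at 0, and 4 melanocyte markers to 1.2 to 2.24 CPM. Of the melanocyte markers Pmel was called lower in ATXN1[82Q], from 1.24 to 0.763 CPM (adjusted p = 0.0055 by edgeR). The 10 microglial markers rose in ATXN1[82Q] against wild type without exception, where 16.6% of all tested genes were called higher. Their sum was 151 to 176 CPM in wild type, 273 to 306 CPM in ATXN1[82Q] and 161 to 189 CPM with the substituted transgene. The part of these shifts in the interneuron gene differences was not tested.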

How the data were processed

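RNA sequencing covered 15 libraries of mouse cerebellum. Per the labels' protocols, libraries came from total RNA amplified with poly(A) and random primers. The submitters' processing notes name STAR 2.5.3a, HTSeq, DESeq2 and the mm10 build. What the authors deposited is a whole-number count per gene symbol and library, without normalisation. Neither the strand setting nor the annotation release is given in the sources used here. Summary rows that name no gene stayed out of library sizes and tests. They held 16.8% to 18.2% of reads as outside genes, 1.18% to 1.25% as ambiguous and 12.8% to 14.6% as not uniquely aligned.

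Groups came from the genotype labels. A single quasi-likelihood fit of edgeR 4.0.16 (R 4.3.3) took all 15 libraries, with TMM normalisation (factors 0.968 to 1.04), filterByExpr at a minimum count of 10, and Benjamini-Hochberg adjustment over 15843 genes. Genes with an adjusted p under 0.05 were called. Intervals are at 95% and cover the spread between libraries; reads were amplified and carry no molecular identifiers, so they are no count of molecules. Correlations used log2 CPM with a prior count of 2. No pair of libraries of a genotype agreed within sampling noise (chi-square per degree of freedom 5.7 to 40.6 over 30 pairs). Exon lengths and positions came from GENCODE M21, and promoters from RefSeq. Results were recomputed with DESeq2 1.42.0, with RLE size factors, without the count filter, with 2 genotypes only, a replicate block, a brainstem or Ttr covariate, and libraries left out.

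The members, lists and tests were chosen with earlier results of these data known. Named were all 9 genes, up to 4 called genes of each further list with the largest difference in ATXN1[82Q] against wild type, Kitl, Gad1, Gad2, Adam22 and Adam23, and the 2 nearest genes of each member (a gene that this rule takes is not reported here). Purkinje cell and microglial markers, all called in ATXN1[82Q] against wild type, are given as sums, counts and medians without names, which departs from this rule. Lgi1, Lgi3, Nrxn2, Sorcs1 and Tfap2a were named after their values were seen.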

Additional observations from a re-analysis of the deposited data

Results flagged for a closer look

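Nxph1 in replicate 1 of the substituted transgene stood apart from its group, at 15.8 CPM where the other 4 libraries lay between 14.2 and 14.6 CPM. Its gap to the nearest library was 0.775 of the group's range, above the critical value of 0.71. Of the 27 groups of 5 libraries examined, 1 stood out, and chance gives about 5% of groups. Without this library Nxph1 kept its call in ATXN1[82Q] against the substituted transgene.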

How the results depend on the processing

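The 5 calls among the interneuron genes in ATXN1[82Q] against wild type held in 25 of 26 alternatives. Of the 26, 3 on neighbouring tissue (libraries with choroid plexus markers under 100 CPM alone, ATXN1[82Q] replicates 2 and 5 and replicate 4 of the substituted transgene left out, summed brainstem markers as a covariate) were chosen after seeing the data. With the low choroid plexus libraries alone, which leaves fewer samples, 2 interneuron genes and 3234 of all genes were called in ATXN1[82Q] against wild type, and 1 and 1512 between the transgenes.

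The Prkcd call with the substituted transgene was the least stable: 0 interneuron genes were called with 2 genotypes only, the replicate block or any of these added alternatives, and 0 to 1 with a library left out. Over all genes that comparison gave 413 calls by DESeq2, 123 without the 3 libraries of high brainstem markers, and 136 to 307 with a library left out, the lowest counts coming without wild-type replicate 2 (143) or without library 2 (136) or 4 (142) of the substituted transgene, beside 223. Between the transgenes 3 to 5 interneuron genes were called with a library left out, the 3 coming without ATXN1[82Q] replicate 1 or replicate 4 or 5 of the substituted transgene. Libraries with the same replicate number were not paired, since no label says that the number marks a shared litter, batch or day. Of their 15 pairs 4 correlated over 0.1, up to 0.568 for replicate 5 of ATXN1[82Q] and wild type (median -0.109). With the number as a block 5, 0 and 4 interneuron genes were called in the 3 comparisons.

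Log2 differences that changed sign were of genes not called with all libraries. In ATXN1[82Q] against wild type, Prkcd ran from -0.0521 to 0.0393 and Lgi2 from -0.111 to 0.00508 with a library left out. Prkcd was at 0.00242 and Slc6a5 at -0.0568 in the low choroid plexus libraries. Slc6a5 was at -0.0827 without ATXN1[82Q] replicates 2 and 5 and -0.0823 when replicate 4 of the substituted transgene was dropped too. With the substituted transgene against wild type, Sorcs3 ran from -0.0047 to 0.0543 and Lgi2 from -0.00348 to 0.0917 with a library left out, and Sorcs3 was at -0.0103 in the low choroid plexus libraries. Between the transgenes Slc6a5 ran from -0.104 to 0.173 with a library left out. It was at -0.109 with the mean of the 2 tested brainstem markers as a covariate and -0.173 with the sum of all 23. Without the 2 or 3 libraries high in these markers it was at -0.387 and -0.359. In the low choroid plexus libraries it was at -0.352, where Slc32a1 was at 0.0151 and Pax2 at -0.0209. Lgi2 passed the test without the 3 libraries, at -0.276 (adjusted p = 0.0341 by edgeR). The cause was not tested. With 5 libraries a group the intervals of uncalled genes span differences of the size called in others.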

Other observations

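Over the 15 libraries, with each genotype mean taken off, the genes whose log2 CPM was nearest to each interneuron gene were picked from 13058 genes by Pearson correlation, as a description. For Kit, Slc24a3, a sodium, potassium and calcium exchanger, was among them (0.903, Spearman 0.786). For Prkcd they were the potassium channel gene Kcnd3 (0.849, Spearman 0.725) and Btbd11 (0.838, Spearman 0.811). For Sorcs3 they were the glucose transporter gene Slc5a1 (0.855, Spearman 0.879) and Dhdh (0.846, Spearman 0.786). For Nxph1 they were the ribosomal protein gene Rpl23 (0.878, Spearman 0.854) and Srsf12 (0.832, Spearman 0.786).

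For the Golgi cell gene Grm2 the nearest were Vegfa, a vascular growth factor (0.887, Spearman 0.911), and Nfrkb (0.875, Spearman 0.875). For Lgi2 they were Tpgs2 (0.937, Spearman 0.896) and Faxc (0.912, Spearman 0.907), and for Slc6a5 Stau2 (0.912, Spearman 0.771) and Uprt (0.886, Spearman 0.757). For Pax2 they were Tbc1d22b (0.884, Spearman 0.857) and Gpd1 (0.863, Spearman 0.839), and for Slc32a1 Dbn1 (0.905, Spearman 0.861) and Hpca (0.872, Spearman 0.818). The genes of a pair share each library's dissection and depth. The markers of unipolar brush cells, excitatory interneurons of the granular layer, were Eomes and Lmx1a, which summed to 26.9 to 50.9 CPM in ATXN1[82Q], 30.2 to 50 CPM in wild type and 28.5 to 55.4 CPM with the substituted transgene, mostly from Eomes. Eomes was not called in ATXN1[82Q] against wild type (log2 -0.20, adjusted p = 0.505 by edgeR). The part of unipolar brush cells in the Grm2 result was not tested. Lmx1a was at 1.27, 6.34, 1.58, 4.64 and 6.02 CPM in ATXN1[82Q] and at 1.96, 0.725, 0.894, 0.781 and 3.27 CPM in wild type. These ranges overlapped, and Lmx1a rose by a log2 value of 1.38 (adjusted p = 0.0416 by edgeR). Its high ATXN1[82Q] libraries, replicates 2, 4 and 5, had 3460, 3490 and 5190 CPM of summed choroid plexus markers. Its highest wild-type libraries, replicates 1 and 5, had 1200 and 4050 CPM of them. In the other libraries of these genotypes that sum was under 100 CPM. The part of choroid plexus tissue in the Lmx1a result was not tested.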
